A study of Mus musculus with 10 samples.

Results

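The tRNAs described here are the 4 nuclear tRNAs of the mouse whose anticodon is known to carry queuosine: tRNA-His-GTG, tRNA-Asp-GTC, tRNA-Asn-GTT and tRNA-Tyr-GTA. They were chosen by name from the 51 nuclear tRNAs, named by amino acid and anticodon, to which the small RNA reads of mature sperm were assigned. Queuosine itself was not measured, and the 4 names stand for the RNAs that can carry it. Sperm came from the epididymal tail and the vas deferens of C57BL/6J fathers (the F0 generation) that entered the diets at an age of 4 weeks. The CD-F0 group had a control diet with 10% of its energy as fat and the HFD-F0 group a high-fat diet with 42%, and each had 5 samples. RNA of up to 30 nt was sequenced, so the reads are fragments and not whole tRNAs, and whether a sample came from 1 father or several is not given in the sources used here, so that the p-values measure the spread between these samples. The comparison asks which of these fragments differed in sperm between the diets.

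Queuosine is a modified guanosine that takes the place of the G at base 34, the first base of the anticodon, in tRNAs that read codons with a pyrimidine at their last position. Animals cannot make its base, queuine, and take it up from food and from gut bacteria. The enzyme of QTRT1 and QTRT2 then exchanges it for the G, and in tRNA-Tyr and tRNA-Asp a sugar, galactose or mannose, is added to it. Queuosine is known to tune how fast these codons are read, to favour methylation of tRNA-Asp by DNMT2 and to protect tRNAs from cleavage at the anticodon. tRNA-His has a further mark of its own, a G added before its first base by the enzyme THG1L, and tRNA-Tyr is cut from a precursor that holds an intron. All tRNAs receive the bases CCA at the 3′ end after transcription, where the amino acid is attached.

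The RefSeq annotation of the GRCm38.p6 assembly holds 13 genes of tRNA-Asn-GTT, 16 of tRNA-Asp-GTC, 10 of tRNA-His-GTG and 10 of tRNA-Tyr-GTA. On chromosome 3 lie 6 of the tRNA-His-GTG genes, within chr3:96410069-96500437, and 6 of the tRNA-Asn-GTT genes, within chr3:96322074-96497854, so both sets share a stretch. A run of 6 tRNA-Tyr-GTA genes lies within chr13:23425646-23467165, and 5 tRNA-Asp-GTC genes lie within chr1:171037029-171102442. The genes are 72 bases long for tRNA-His-GTG and tRNA-Asp-GTC, 74 for tRNA-Asn-GTT and 86 to 93 for tRNA-Tyr-GTA. In the GENCODE M21 annotation 7, 14, 9 and 8 of the tRNA-His-GTG, tRNA-Asp-GTC, tRNA-Asn-GTT and tRNA-Tyr-GTA genes are intergenic, and the others lie within other genes, such as the tRNA-His-GTG gene in an intron of Nfib and the tRNA-Asp-GTC gene in an intron of Aqr. The files name the anticodon and not the gene, so copies could not be told apart. The next lines give the start of 1 gene of each of 3 of the tRNAs, for the Asp gene only the 17 bases at hand. How far a read of a 5′ end reaches along such a start is not given. The anticodon arm of the His and Asn genes has the anticodon in capitals, whose first capital is the base that queuosine replaces. The last 30 bases of a tRNA-Asn-GTT gene end without CCA. The stretches come from the RefSeq genes n-THgtg7 (chr3:96452495-96452524 and chr3:96452521-96452537, plus strand, intergenic), n-TNgtt6 (chr1:171033986-171034015 and chr1:171033972-171033988, minus strand, intergenic), n-TNgtt7 (chr10:80249203-80249232, plus strand, in an exon of Ndufs7) and n-TDgtc12 (chr13:21940374-21940390, minus strand, in an exon of Gm11280), on GRCm38.p6.
His start: gccgtgatcgtatagtggttagtactctgc
His anticodon arm: ctgcgttGTGgccgcag
Asn start: gtctctgtggcgcaatcggttagcgcgttc
Asn anticodon arm: ttcggctGTTaaccgaa
Asn last bases: aggttggtggttcgagcccacccagggacg
Asp start: tcctcgttagtatagtg
Counted from 1 at the first base of the gene, the anticodon starts at base 34 in n-THgtg7 and at base 35 in n-TNgtt6. A fragment of 30 bases that starts at base 1 therefore stops before the anticodon in both and does not hold the base that queuosine replaces. Read positions are not given, so which of the reads assigned to the inside of the tRNA hold that base is not known. Over the 17 bases at hand, the starts of the Asp and His genes have the same base at 12 positions, while over 30 bases the Asn and His starts have the same base at 10.

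The 10 libraries held 29558751 to 32178088 clean reads, of which 64.9 to 75.2% matched the genome in CD-F0 and 73.3 to 74.7% in HFD-F0, and nuclear tRNAs took 228730 to 258288 reads per 1000000 clean reads (RPM) in CD-F0 and 226410 to 273695 in HFD-F0. All 5 hairpins fixed as germ line markers (the miR-34b/c and miR-449 hairpins) were listed in every library and summed to 10478 to 12648 RPM in CD-F0 and 7275 to 15064 in HFD-F0. Markers of other cells were listed too and none was at 0. The 6 epithelial hairpins summed to 3969 to 6756 RPM in CD-F0 and 5520 to 9463 in HFD-F0, the 2 of smooth muscle to 21237 to 28878 and 15716 to 35889, and the 5 of blood and immune cells to 1517 to 2527 and 1426 to 3066. Their part in the results was not tested, and in such bulk samples fewer cells of a type and less RNA per cell cannot be told apart. The libraries numbered 1 stood apart within their groups. Of the 16 fragments (4 tRNAs by 4 parts), replicate 1 had the lowest RPM of its group for 9 in CD-F0 and for 10 in HFD-F0. The group means include these libraries, and values without both are given for only some of the results.

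Together the 4 tRNAs took 6647 RPM ± 705 (SD, n = 5) in CD-F0 and 7079 ± 699 in HFD-F0, or 2.69% ± 0.279 and 2.87% ± 0.0803 of the nuclear tRNA reads. tRNA-Asp-GTC was the most abundant on average, with 2572 RPM ± 273 over all 10 samples, which placed it 26th of the 51 nuclear tRNAs. It was followed by tRNA-Asn-GTT with 2302 ± 405 (28th), tRNA-His-GTG with 1031 ± 125 (36th) and tRNA-Tyr-GTA with 957 ± 84.3 (39th). These levels count fragments and were not divided by the length of the tRNA, since a fragment of up to 30 nt gives 1 read whatever the length of its tRNA. Neighbours in this order were not always apart. tRNA-Asp-GTC was above tRNA-Asn-GTT in 6 of 10 samples, with a mean log2 ratio of 0.17 ± 0.28 (SD), and tRNA-His-GTG was above tRNA-Tyr-GTA in 8 of 10, with 0.10 ± 0.13. The step between the upper and the lower pair was present in all 10 samples, with a mean log2 ratio of 1.15 ± 0.16 for tRNA-Asn-GTT over tRNA-His-GTG.

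**Figure D1:**
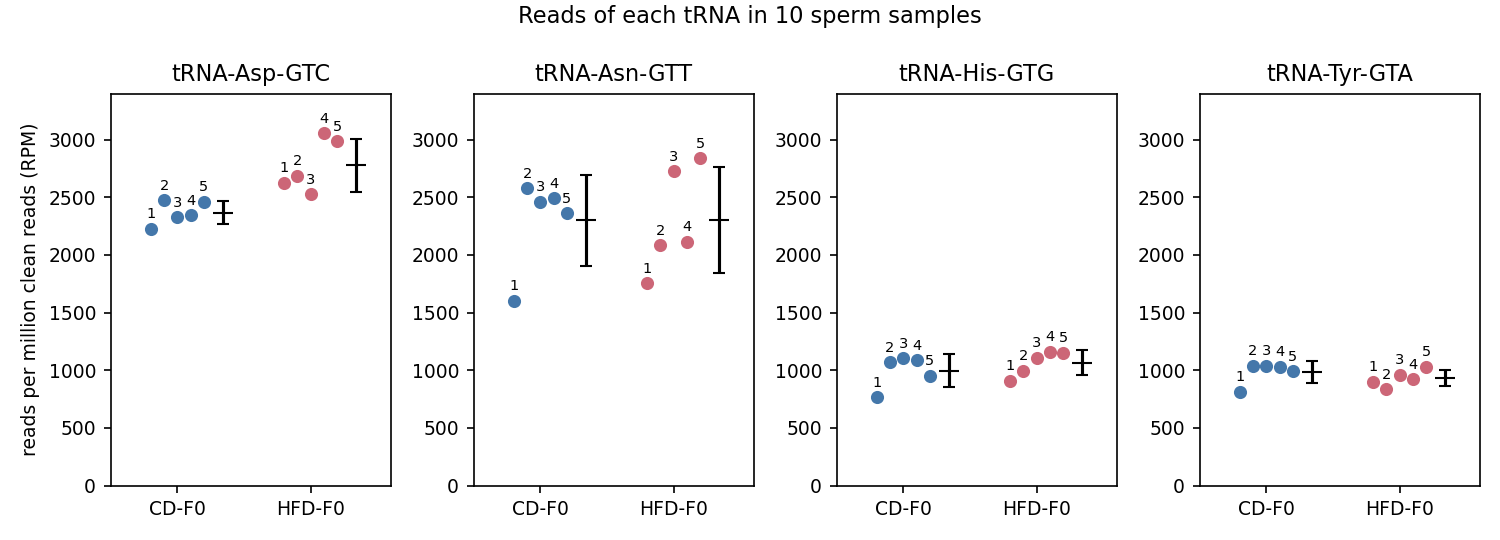
Reads of each tRNA in every sample, in reads per 1000000 clean reads (vertical axis, from 0), for the CD-F0 group (blue) and the HFD-F0 group (red). Numbers are the replicate numbers, and the black bars give the mean ± SD of 5 samples. The groups do not overlap for tRNA-Asp-GTC, and they overlap for the other tRNAs.

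Reads were divided by the part of the tRNA they came from: the 5′ end, the 3′ end as the gene encodes it, the 3′ end with CCA (the CCA end), and the rest, called internal. Most reads of tRNA-His-GTG, tRNA-Asn-GTT and tRNA-Asp-GTC were internal, while those of tRNA-Tyr-GTA were divided between the inside and the 5′ end. Over 10 samples internal reads made up 83.1% ± 2.95 (SD) of tRNA-His-GTG, 76.7% ± 5.31 of tRNA-Asn-GTT, 68.9% ± 3.88 of tRNA-Asp-GTC and 46.5% ± 3.77 of tRNA-Tyr-GTA, beside a median of 46.6% over the nuclear tRNAs. These shares ranked 6th, 9th, 12th and 27th of 51. The 5′ end gave 14.9% ± 2.78 of tRNA-His-GTG, 21.0% ± 4.91 of tRNA-Asn-GTT, 24.9% ± 2.82 of tRNA-Asp-GTC and 41.0% ± 3.98 of tRNA-Tyr-GTA, each under the median of 46.2% over the nuclear tRNAs. Of nuclear tRNAs that have a G at base 34 and are not known to carry queuosine, the 4 listed for comparison did not share 1 level: the mean 5′ share was 94.7% for tRNA-Cys-GCA, 93.6% for tRNA-Ser-GCT, 51.0% for tRNA-Phe-GAA and 37.9% for tRNA-Gly-GCC, and so the last of these lay below tRNA-Tyr-GTA. A further one that was not on the list, tRNA-Ser-GGA, had 80.8%. The CCA end was most prominent in tRNA-Tyr-GTA, where it made up 10.8% ± 1.09 of the reads and ranked 4th of 51, against 4.50% ± 1.58 in tRNA-Asp-GTC, 1.78% ± 0.308 in tRNA-His-GTG and 1.57% ± 0.813 in tRNA-Asn-GTT. The encoded 3′ end was rare in all of them, from 0.169% of tRNA-His-GTG to 1.71% of tRNA-Asp-GTC, yet tRNA-Asp-GTC and tRNA-Tyr-GTA (1.67%) ranked 5th and 6th of the 50 nuclear tRNAs with such reads. The smallest counts were those of the tRNA-His-GTG 3′ end, with 11 to 101 reads per library, whereas the 5′ end of each of the 4 tRNAs had at least 2848 reads in every library. The 95% Wilson interval of a share in 1 sample was at most 0.619 percentage points to either side, and it covers counting error only.

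**Figure D2:**
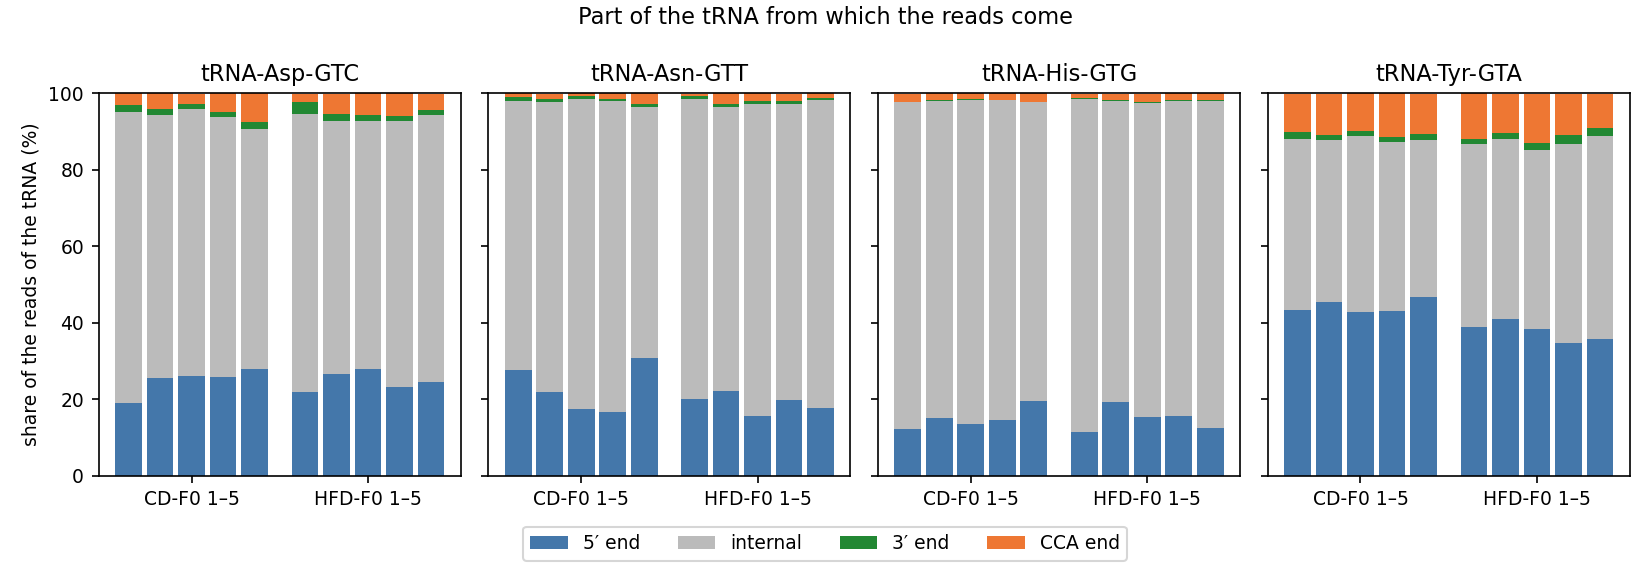
Share of the reads of each tRNA (vertical axis, percent) that came from the 5′ end (blue), the inside (grey), the encoded 3′ end (green) and the CCA end (orange), with 1 bar per sample, replicates 1 to 5 of CD-F0 and then of HFD-F0. Internal reads fill most of each bar for tRNA-His-GTG, tRNA-Asn-GTT and tRNA-Asp-GTC, while tRNA-Tyr-GTA has the widest blue and orange bands.

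Among the 4 tRNAs, shares of the parts that differed between the diets with an exact p of 0.05 or less were those of tRNA-Tyr-GTA, and whether it differed from the other 3 in this was not tested. Its 5′ share was 43.5, 45.3, 42.9, 43.1 and 46.7% in CD-F0 replicates 1 to 5 and 38.9, 41.1, 38.3, 34.8 and 35.9% in HFD-F0 replicates 1 to 5. Every HFD-F0 sample was below every CD-F0 sample. The mean was lower by 6.52 percentage points, at 37.8% ± 2.52 (SD, n = 5) against 44.3% ± 1.65, with p = 0.00794 in a two-sided exact permutation test, the smallest that 5 against 5 samples allow. The Benjamini-Hochberg adjusted value over the 203 shares of nuclear tRNAs tested was 0.230, so the difference failed the correction. In the same samples the internal share was 44.7, 42.6, 45.9, 44.3 and 41.0% in CD-F0 and 47.8, 47.0, 47.0, 52.0 and 53.0% in HFD-F0. It was higher by 5.66 points in HFD-F0 without overlap (exact permutation p = 0.00794, adjusted 0.230), and since shares of 1 tRNA add up to 100%, this is not a second, independent result. Among the 203 shares 6.9% had an exact p of 0.05 or less and 3.45% did not overlap between the groups, and 2 of the 16 shares of the queuosine tRNAs did so. A 5′ share that was lower in HFD-F0 without overlap was found for 1 of 51 nuclear tRNAs (1.96%), which is tRNA-Tyr-GTA, and the same holds for a higher internal share (1 of 51, 1.96%). Leaving out any single sample gave differences of the 5′ share of -7.35 to -5.77 points, with exact permutation p-values of 0.00794 to 0.0159. Without both libraries numbered 1 the difference was -7.01 points (exact permutation p = 0.0286, 4 against 4 samples). Groups that do not overlap stay apart when samples are left out, so these p-values were bound to be small and are not further evidence.

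**Figure D3:**
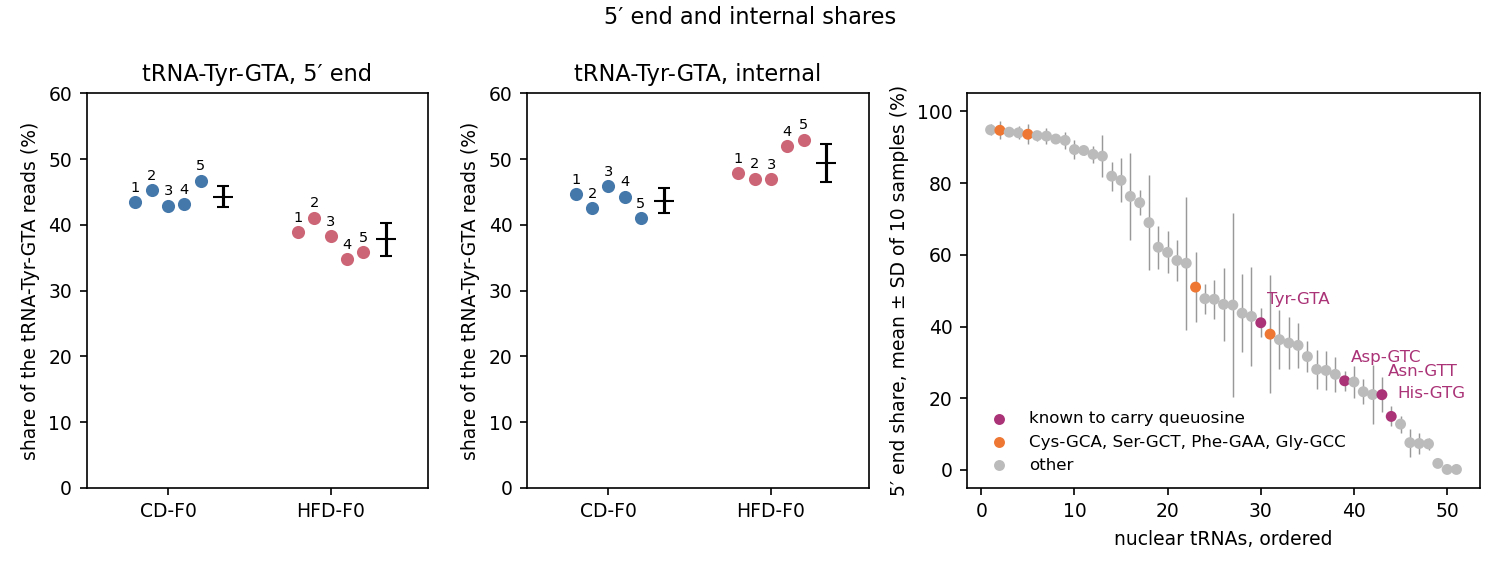
Left and middle: share of the tRNA-Tyr-GTA reads from the 5′ end and from the inside (vertical axes, percent, from 0) in each CD-F0 (blue) and HFD-F0 (red) sample, with replicate numbers and the mean ± SD of 5 samples in black. Right: mean 5′ share ± SD over 10 samples of the 51 nuclear tRNAs in descending order, where the queuosine tRNAs (purple) lie between 14.9 and 41.0% and the 4 listed G34 tRNAs without queuosine (orange) between 37.9 and 94.7%.

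The level of the tRNA-Tyr-GTA 5′ end counts the same reads as its share, so it is not a second, independent result. In edgeR this 5′ end was the only one of the 16 fragments whose level had a p of 0.05 or less. It had 354, 471, 446, 445 and 463 RPM in CD-F0 replicates 1 to 5 and 351, 345, 369, 321 and 369 RPM in HFD-F0 replicates 1 to 5. CD-F0 replicate 1 lay among the HFD-F0 samples, and the other 4 CD-F0 samples were above all 5 of them. The log2 fold change, HFD-F0 over CD-F0, was -0.40 (SE 0.13), and in edgeR's quasi-likelihood test its unadjusted p was below 0.05 while the Benjamini-Hochberg adjusted p = 0.250 over 814 features. By the thresholds of the study, p of 0.05 or less together with a log2 fold change of at least 1 in size, 0 of the 16 fragments passed, where 3.69% of all 814 features did. The study applied these thresholds to single small RNAs, while each fragment here sums all reads of a part of a tRNA, so the counts are not comparable. With p alone 1 of 16 passed, beside 10.2% of all features (4.05% for the lower direction), and that 1 was this fragment. In RPM, by a two-sided exact permutation test added after the values had been seen, 2 of 16 had a p of 0.05 or less, beside 10.4% of all features. These were the 5′ end of tRNA-Tyr-GTA and the internal reads of tRNA-Asp-GTC, each with an exact permutation p = 0.0238 and an adjusted value of 0.323. The fold changes ran from -0.40 to 0.31 with a median of 0.01, and the median over all features was -0.01. Without CD-F0 replicate 1 the 5′ end of tRNA-Tyr-GTA had a log2 fold change of -0.44 and still passed p alone, and with the clean reads as library size it was -0.31 and did not. The other parts of tRNA-Tyr-GTA did not pass the test: internal reads were at 429.4 RPM ± 44.5 in CD-F0 and 461 ± 56.8 in HFD-F0 (log2 fold change 0.02, SE 0.15), CCA ends at 104 ± 14.0 and 102 ± 14.4, and 3′ ends at 14.3 ± 1.52 and 17.5 ± 4.22. For the tRNA as a whole the samples had 815, 1039, 1038, 1032 and 991 RPM in CD-F0 and 902, 839, 963, 924 and 1030 RPM in HFD-F0. The groups overlapped, and the log2 fold change was -0.15 (SE 0.13, edgeR adjusted p = 0.742). Fragments assigned to the precursor with the intron, pre-tRNA-Tyr-GTA, came to 3 to 30 reads per CD-F0 library and 8 to 39 per HFD-F0 library.

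tRNA-Asp-GTC, whose queuosine is mannosylated and which DNMT2 methylates, was the only one of the 4 whose total did not overlap between the groups in RPM. It had 2227, 2475, 2328, 2345 and 2462 RPM in CD-F0 replicates 1 to 5 and 2628, 2686, 2527, 3055 and 2984 RPM in HFD-F0 replicates 1 to 5. Every HFD-F0 sample was above every CD-F0 sample, though the lowest HFD-F0 and the highest CD-F0 sample were close. The means were 2368 ± 103 and 2776 ± 231 RPM (SD, n = 5; two-sided exact permutation p = 0.00794, adjusted 0.143 over the nuclear and mitochondrial tRNA totals), and totals that were higher in HFD-F0 without overlap made up 1.96% of the 51 nuclear tRNAs, which is this tRNA alone. Among the mitochondrial totals, those of mt_tRNA-Ile-GAT, mt_tRNA-Leu-TAG and mt_tRNA-Trp-TCA were also higher in HFD-F0 without overlap. As a share of the nuclear tRNA reads tRNA-Asp-GTC was 0.957% ± 0.0455 in CD-F0 and 1.13% ± 0.0821 in HFD-F0, where the groups overlapped (exact permutation p = 0.0159, adjusted 0.163), and 5.88% of the 51 nuclear tRNAs had a p of 0.05 or less on that scale. Both the RPM test and the share test were added after the values had been seen. In edgeR, which scales libraries by TMM, the log2 fold change was 0.16 (SE 0.14, adjusted p = 0.713 over 641 features), so tRNA-Asp-GTC did not pass the planned test. The totals of 0 of the 4 tRNAs passed p and fold change, beside 2.96% of all 641 features, and 0 of 4 passed p alone, beside 11.7%. By part, internal reads of tRNA-Asp-GTC had 1544 to 1703 RPM in CD-F0 and 1640 to 2127 in HFD-F0 (log2 fold change 0.13, SE 0.13), 5′ ends 423 to 687 and 573 to 729 (0.14, SE 0.16), 3′ ends 28.7 to 49.4 and 39.4 to 79.4 (0.31, SE 0.21), and CCA ends 63.2 to 182 and 59.4 to 177 (0.24, SE 0.36). None of these parts passed in edgeR, and all 4 fold changes were positive. The internal reads, at a mean of 1633 RPM in CD-F0 and 1910 in HFD-F0, had the low exact permutation p in RPM given above (0.0238, adjusted 0.323), and their groups overlapped. Its shares were nearly the same in both groups, with 24.9% ± 3.43 and 24.8% ± 2.46 from the 5′ end (difference -0.111 points, exact permutation p = 0.976).

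tRNA-Asn-GTT varied more between samples than between diets. Its total was 1603, 2578, 2461, 2494 and 2363 RPM in CD-F0 and 1757, 2086, 2729, 2116 and 2837 RPM in HFD-F0. The lowest sample of each group was replicate 1, and the group means of 2300 ± 397 and 2305 ± 460 differed by far less than the SD (log2 fold change -0.05, SE 0.20, edgeR adjusted p = 0.960). The 5′ end was at 516 ± 133 RPM in CD-F0 and 433 ± 54.3 in HFD-F0, a log2 fold change of -0.33 (SE 0.20, edgeR adjusted p = 0.586) that did not pass. CD-F0 replicate 5 had the highest 5′ level, with 729 RPM, and the highest 5′ share, with 30.9%, where the other 9 samples had 15.7 to 27.7%. Internal reads were at 1733 ± 390 and 1816 ± 413 RPM, and 3′ ends at 17.2 ± 2.51 and 16.4 ± 2.77. The CCA end was the least even fragment of this tRNA, from 11.4 to 66.4 RPM over the 10 samples, a coefficient of variation of 52.8% against 15.1 to 22.2% for its other parts. It was lowest in the replicates numbered 1, with 14.1 RPM in CD-F0 and 11.4 in HFD-F0.

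tRNA-His-GTG, the tRNA with the extra G at its 5′ end, showed no difference between the diets beyond the spread of the samples. It had 766, 1070, 1104, 1089 and 954 RPM in CD-F0 and 909, 998, 1111, 1160 and 1154 RPM in HFD-F0. The ranges overlapped over most of their width, and the log2 fold change was 0.04 (SE 0.16, edgeR adjusted p = 0.962). Its 5′ end was at 150 ± 34.5 and 158 ± 35.1 RPM, internal reads at 827 ± 121 and 888 ± 94.6, and CCA ends at 17.9 ± 1.50 and 18.7 ± 4.53, with log2 fold changes of 0.01 (SE 0.24), 0.02 (SE 0.15) and -0.01 (SE 0.22). The 3′ end, at 0.344 to 3.20 RPM, had a log2 fold change of -0.11 (SE 0.51) and varied widely between samples, with a coefficient of variation of 50.5%. Its internal share of 83.0% ± 2.91 in CD-F0 and 83.3% ± 3.32 in HFD-F0 was the highest among the 4 tRNAs in both groups.

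**Figure D4:**
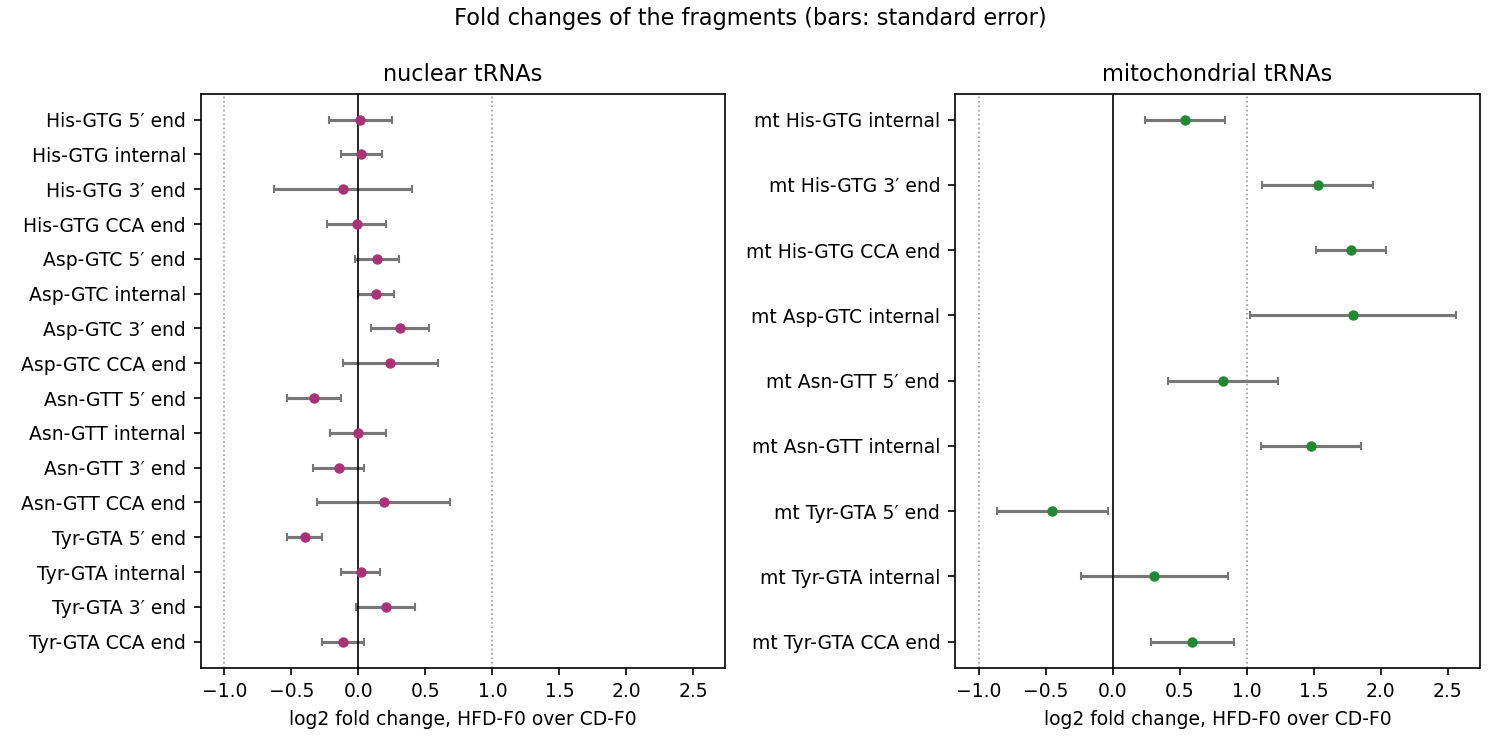
Log2 fold change, HFD-F0 over CD-F0 (horizontal axis), of the 16 fragments of the nuclear queuosine tRNAs (left) and the 9 tested fragments of their mitochondrial counterparts (right), with standard errors from edgeR and dotted lines at -1 and 1. The nuclear fragments lie between -0.40 and 0.31, and 8 of the 9 mitochondrial ones are above 0. Of all 53 mitochondrial tRNA fragments tested, most of them not drawn, 49 had a positive fold change.

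The files also divide reads into those that matched the genome and those that matched only a tRNA sequence, a division that the choice of the tRNAs did not use. A single mismatch was allowed, and CCA is not in the genes, so a read that ends in CCA can fail to match the genome. The CCA ends of the 4 tRNAs were far apart in this measure. The median over 10 samples was 99.9% unmatched for tRNA-Asp-GTC, 97.3% for tRNA-His-GTG, 89.5% for tRNA-Tyr-GTA and 55.5% for tRNA-Asn-GTT, beside a median of 68.8% over the 44 nuclear tRNAs with enough reads, of which tRNA-Asp-GTC was the highest. The tRNA-Asn-GTT value was even in 8 samples, from 54.3 to 58.1%, and was 30.1% in CD-F0 replicate 1 and 17.8% in HFD-F0 replicate 1, the same libraries that had the fewest of these CCA ends. The encoded 3′ ends held 0 unmatched reads, of 564 in all for tRNA-His-GTG, which allows up to 0.532%, to 13821 for tRNA-Asp-GTC, which allows up to 0.0217%. This was not particular to the 4 tRNAs: the encoded 3′ ends of all 50 nuclear tRNAs with such reads held 0 unmatched reads among 193642. The limits cover counting error only. How reads were assigned to this end, which bears on whether they can fail to match, is not given in the sources used here.

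At the 5′ end, tRNA-His-GTG stood alone among all 51 nuclear tRNAs: of its 48450 5′ reads over the 10 samples 2631 did not match the genome, and the 5′ end of no other nuclear tRNA held any such read. For tRNA-Asp-GTC, tRNA-Asn-GTT and tRNA-Tyr-GTA this means 0 of 200625, 0 of 148528 and 0 of 123310 reads, which allows shares of up to 0.0015, 0.00202 and 0.00243%. These limits cover counting error only and take each read as a separate molecule, and how the tRNA set was built, which bears on whether a 5′ read can fail to match the genome, is not given in the sources used here. The unmatched share of the tRNA-His-GTG 5′ end was 4.39, 4.89, 4.74, 5.87 and 5.42% in CD-F0 replicates 1 to 5 and 4.89, 5.44, 6.79, 6.00 and 4.93% in HFD-F0 replicates 1 to 5. It was thus present in every sample at a similar level, and the groups overlapped (5.06% ± 0.584 and 5.61% ± 0.797, SD, n = 5; exact permutation p = 0.206, adjusted 0.960). The files give no sequence of the reads, so which base kept them from matching was not analysed here. Inside the tRNA, tRNA-Tyr-GTA had the most unmatched reads of the 4, with a median of 10.2%, which ranked 4th of 48 nuclear tRNAs, against 2.30% for tRNA-Asp-GTC, 0.358% for tRNA-His-GTG and 0.0199% for tRNA-Asn-GTT and a median of 0.909% over these tRNAs. Between the diets, 0 of the 9 unmatched shares tested for the 4 tRNAs had an exact permutation p of 0.05 or less, beside 4.3% of the 93 tested for nuclear tRNAs. Without CD-F0 replicate 2 the internal share of tRNA-His-GTG (-0.114 points, exact permutation p = 0.0159), and without CD-F0 replicate 5 the CCA share of tRNA-Tyr-GTA (3.07 points, exact permutation p = 0.00794), would have passed.

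**Figure D5:**
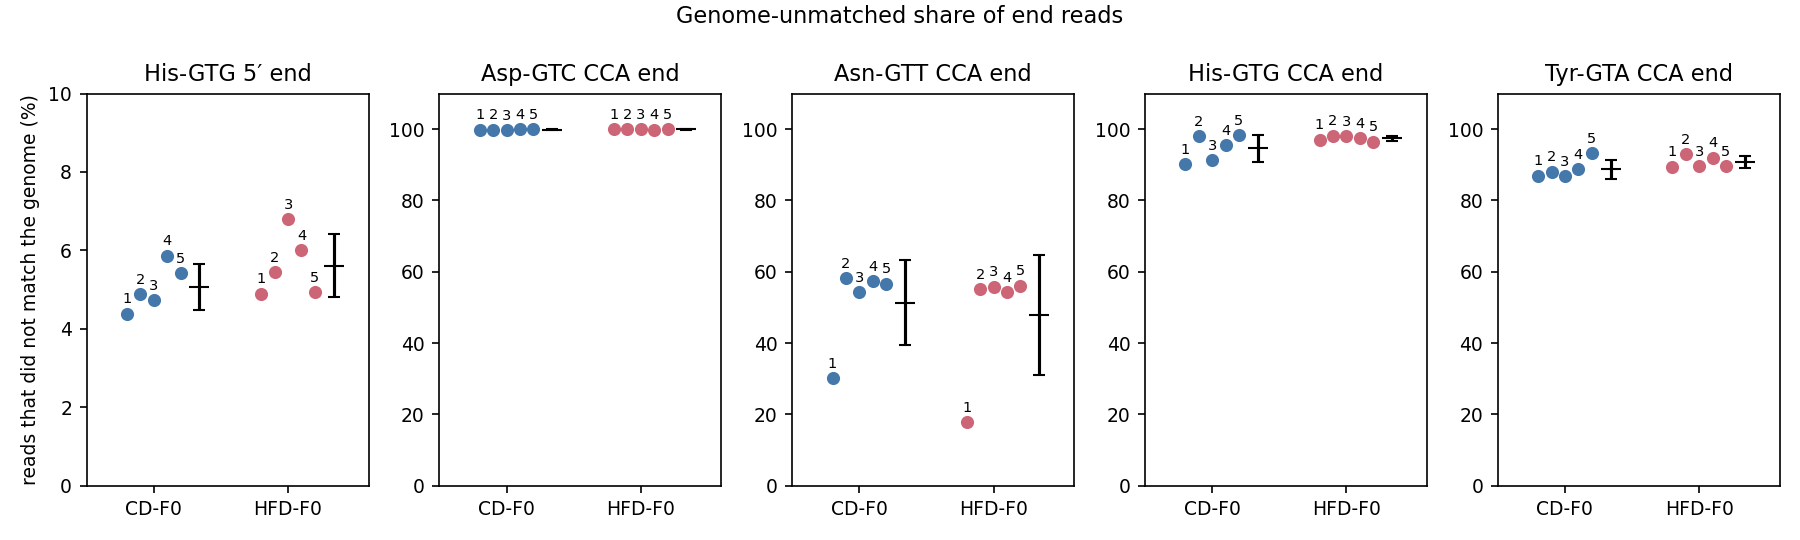
Share of the reads of an end fragment that did not match the genome (vertical axes, percent, from 0, with a narrower axis in the first panel) in each CD-F0 (blue) and HFD-F0 (red) sample, with replicate numbers and the mean ± SD of 5 samples in black. The 5′ end of tRNA-His-GTG lies between 4.39 and 6.79%, and the CCA end of tRNA-Asn-GTT falls to 30.1 and 17.8% in the replicates numbered 1.

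Mitochondria have tRNAs of their own with the same 4 anticodons, which also carry queuosine. Of their 15 fragments 9 had enough reads to be tested. Of these 9, 4 were higher in HFD-F0 by p and fold change (8 of 9 fold changes were positive, median 0.82), while the background is 3.69% of all 814 features. The internal reads of mt_tRNA-Asp-GTC, which are among the 4, came to only 5 to 130 reads per library. Their medians were 0.263 RPM in CD-F0 and 0.406 in HFD-F0, and the groups overlapped. Over the 53 mitochondrial tRNA fragments tested, 11 were higher by the same thresholds, 49 had a positive fold change and the median was 0.78. The CCA end of mt_tRNA-His-GTG passed after adjustment as well (log2 fold change 1.78, SE 0.26, edgeR adjusted p = 0.0168), with 19.5 to 46.2 RPM in CD-F0 and 79.6 to 148 in HFD-F0, so that the groups did not overlap. The log2 fold change of the total was 1.30 (SE 0.36, edgeR adjusted p = 0.280) for mt_tRNA-Asn-GTT and 0.80 (SE 0.28, edgeR adjusted p = 0.310) for mt_tRNA-His-GTG, where the nuclear tRNAs of the same anticodon had -0.05 and 0.04. mt_tRNA-Tyr-GTA had 0.23 (SE 0.47), and mt_tRNA-Asp-GTC was at no more than 4.60 RPM in any sample, with 1.70 (SE 0.77, edgeR adjusted p = 0.408). The difference between the nuclear and the mitochondrial members of a pair was not tested. Of the 4 listed G34 tRNAs without queuosine (16 fragments, median log2 fold change 0.11) and the DNMT2 substrates tRNA-Asp-GTC, tRNA-Gly-GCC and tRNA-Val-AAC (12 fragments, median 0.14), none passed p alone, beside 10.2% of all features. The highest in both lists was the tRNA-Gly-GCC 5′ end, at a mean of 1762 RPM in CD-F0 and 3435 in HFD-F0 (log2 fold change 0.93, SE 0.49, edgeR adjusted p = 0.514). The paper reports a 5′ small RNA of tRNA-Gly-GCC as increased in HFD-F0 sperm, also by Northern blot. It tested single small RNAs, while the value here sums all 5′ end reads. DESeq2's Wald test likewise called 0 of the 16 queuosine fragments by p and fold change.

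Likeness was measured as the SD over the 10 samples of the log2 ratio of 2 totals in RPM, among 71 other tRNA totals with at least 100 reads in every sample. tRNA-His-GTG kept the most even ratio to tRNA-Val-CAC (SD 0.09) and tRNA-Val-AAC (0.12), and tRNA-Asn-GTT to the same pair (0.14 and 0.14). tRNA-Tyr-GTA was most like tRNA-Arg-CCT (0.08) and tRNA-Gln-CTG (0.11), and tRNA-Asp-GTC most like tRNA-Val-TAC (0.13) and tRNA-His-GTG (0.17). Apart from that last pair, none of the 4 tRNAs was among the 2 nearest to another of them: tRNA-Asn-GTT was 22nd of 71 in likeness to tRNA-Asp-GTC, with an SD of 0.28.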

How the data were processed

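Small RNA of sperm was sequenced in 5 CD-F0 and 5 HFD-F0 samples. The authors processed clean reads with SPORTS, which aligned them with Bowtie (version not given in the sources used here) to the genome (mm10 per the submitters' processing notes) and to tRNA and other RNA sets with a single mismatch, and deposited 1 table per sample of estimated counts, in which a read with several matches is divided; 37.3 to 39.8% of the values are not whole numbers. Whether reads were collapsed by molecular identifiers is not given. Genome-matched and unmatched counts were added here, internal reads are the total less the ends, and RPM is per 1000000 clean reads. For edgeR 4.0.16 (quasi-likelihood test, TMM, filterByExpr) counts were rounded, in 1 fit over 814 features and in another over 641 with the parts of each tRNA merged; all 16 fragments passed the filter. The SE is the fold change over the root of F. Shares were compared by exact permutation over 252 assignments in Python 3.11.15 with SciPy 1.17.1, for tRNAs or parts with at least 100 reads in every sample, with Benjamini-Hochberg adjustment. No 2 libraries were alike within sampling noise (45 pairs, lowest chi-square per degree of freedom 569). Tested on simulated data of the 814-feature design, with 795 features left after the filter, edgeR recovered 187 of 189 features that had been raised or lowered by 2 on the log2 scale. In that simulation 10 unchanged features had an adjusted p below 0.05. Changes as small as those of the 16 fragments, from -0.40 to 0.31, were not simulated, so this recovery does not bear on them. Alternatives were DESeq2 1.42.0, other library sizes, filters and feature sets, genome-matched reads, log-odds, a replicate block, exact permutation in RPM and leaving out samples.

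All 4 tRNAs and their parts are named, with the lists of G34 tRNAs, mitochondrial counterparts, DNMT2 substrates and marker hairpins, and for each total its 2 nearest tRNAs. The members and lists were chosen with earlier results of these data known. Sequences and gene positions are from RefSeq on GRCm38.p6. Gene bases were at hand only where a promoter window or exon covered them, and that of tRNA-Tyr-GTA was not analysed here.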

Additional observations from a re-analysis of the deposited data

Results flagged for a closer look

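In groups of 5, a sample was marked where its gap to the nearest other sample was large for the range of the group by Dixon's criterion, which chance meets in about 5% of groups. Of 90 groups 10 were marked, and 7 of these 10 were libraries numbered 1. In CD-F0 replicate 1 the tRNA-Asn-GTT total was 1603 RPM (2363 to 2578 in the others), the tRNA-Tyr-GTA total 815 (991 to 1039), the tRNA-Tyr-GTA 5′ end 354 (445 to 471) and the 5′ share of tRNA-Asp-GTC 19.0% (25.6 to 27.9). In HFD-F0 replicate 1 the 5′ end of tRNA-Asp-GTC was 573 RPM (705 to 729). The unmatched share of the tRNA-Asn-GTT CCA end was 30.1% in CD-F0 replicate 1 and 17.8% in HFD-F0 replicate 1. The CCA end of tRNA-His-GTG was 20.5 RPM in CD-F0 replicate 5 (16.9 to 17.9). For the tRNA-Asn-GTT 3′ end, CD-F0 replicate 2 had 21.5 RPM (15.2 to 16.8) and HFD-F0 replicate 5 a share of 0.587% (0.718 to 0.768).

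Reads of pre-tRNA-Tyr-GTA, which no comparison above uses, reached 39 in HFD-F0 replicate 4, where the other 9 libraries had 3 to 31. The difference between the groups did not pass edgeR's quasi-likelihood test (log2 fold change 0.44, SE 0.60, adjusted p = 0.898).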

How the results depend on the processing

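Tests are those named in the report unless another is named. Calls by p and fold change were 0 of 16 fragments and 0 of 4 totals in every setting tried. The number of fragments with p of 0.05 or less in edgeR, 1 as reported, was 0 with clean reads as library size and no TMM, where the tRNA-Tyr-GTA 5′ end no longer passed and the median of all features shifted to 0.09 on the log2 scale, and 2 with tRNA features only, where the 5′ end of tRNA-Asn-GTT joined (log2 fold change -0.40). By exact permutation in RPM, also chosen after seeing the data, it was 2 with the Asp internal reads, and 1 total (tRNA-Asp-GTC) instead of 0 passed in RPM and 1 as a share of the nuclear tRNA reads. The log2 fold change of the tRNA-Tyr-GTA 5′ end lay between -0.46 and -0.31 in the settings that kept all samples, and between -0.44 and -0.38 with single samples left out. The tRNA-Asp-GTC total had 0.10 to 0.25 with single samples left out.

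Whether samples with the same replicate number belong together is not given in the sources used here. Deviations of same-numbered samples correlated by 0.336, -0.0876, 0.246, -0.191 and -0.137 for numbers 1 to 5. For numbers 1 and 3 the same-numbered sample was the best match in both directions, and for numbers 2, 4 and 5 in neither. A structure shared by number was not tested further. With a replicate block the count of fragments by p alone was 1, and the exact sign-flip test with the block gave 0 of the 16 shares instead of 2, with p = 0.0625 for both tRNA-Tyr-GTA shares, the smallest that test can give. The block turned the 5′ end of tRNA-His-GTG to -0.015 on the log2 scale.

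Signs that turned belonged to differences that had not passed any test. On the log2 scale, clean reads gave 0.064 for the His CCA end, 0.068 for the Asn internal reads and 0.0035 for the Asn total, and RPM gave the same 3 values (0.064, 0.068 and 0.0035), while the Asn total had 0.0054 as a share of the nuclear tRNA reads. The His 5′ end had -0.00068 with at least 10 counts in every sample, -0.0043 with genome-matched reads and -0.060 with tRNA features only, where the His and Tyr internal reads had -0.062 and -0.066. In percentage points, genome-matched reads gave -0.0011 for the Asp CCA share and -0.160 for the Tyr CCA share. Without both replicates numbered 1, a setting chosen after seeing the data like the RPM and share tests of totals, the His CCA end stood at 0.13 on the log2 scale, and the differences were 0.0201 for the Asn 3′ share, 0.320 for the Asp internal, -0.0606 for the His internal and 0.117 for the His CCA share, and 0.000363 for the Asn internal unmatched share, while the Tyr 3′ share reached 0.599 (exact permutation p = 0.0286, 4 against 4). Without HFD-F0 replicate 1 alone that share had 0.503 (exact permutation p = 0.0317), so that 2 to 3 shares had p of 0.05 or less with single samples left out, and 0 to 1 unmatched shares. The causes were not tested.

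With single samples left out, these changed sign, given from lowest to highest. Log2 fold changes were His 5′ end -0.092 to 0.13, His internal -0.040 to 0.071, His 3′ end -0.39 to 0.13, His CCA end -0.12 to 0.11, Asn internal -0.12 to 0.080, Asn CCA end -0.012 to 0.57, Tyr internal -0.073 to 0.052, His total -0.035 to 0.15 and Asn total -0.17 to 0.089. Differences of shares, in percentage points, were Asn 3′ end -0.0887 to 0.0205, Asp 5′ end -1.59 to 0.641, Asp internal -2.01 to 1.37, Asp 3′ end -0.0206 to 0.413, Asp CCA end -0.174 to 0.995, His 5′ end -1.31 to 0.977, His internal -0.944 to 1.44, His 3′ end -0.0487 to 0.0104 and His CCA end -0.204 to 0.0205. Those of unmatched shares were Asn internal -0.00519 to 0.0038, Asn CCA end -8.79 to 4.03, Asp internal -0.398 to 0.0471 and Tyr internal -1.49 to 0.278. Besides counts of fragments called, 627 of the values recomputed kept their direction and side of the threshold, 86 changed sign, 8 newly passed and 3 no longer passed. With genome-matched reads only, the His CCA end moved to -1.10 on the log2 scale, which did not pass.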
